A study of Mus musculus with 6 samples.

Results

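The genes described here are the 6 AP-1 transcription factor subunits Fosl1, Fosl2, Fos, Jun, Junb and Jund, taken by their symbols from the 24181 genes of the deposited count table, which lists all 6. RNA from the 3' ends of transcripts was sequenced in MC38, a cultured mouse line that the labels describe as colon adenocarcinoma. The labels give 3 samples of parental MC38 cells, which are wild type, and 3 of MC38 cells that express STING-N153S, a changed form of the innate immune adaptor STING. The labels name no treatment and no time, and they do not say whether the STING-N153S cells are 1 clone or what drives the expression. The STING-N153S group was not analysed here, because more columns than samples carry names that could mean it. The values below are therefore those of the 3 parental libraries, and no difference between the groups is reported.

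AP-1 is a dimer of basic leucine zipper proteins. The JUN proteins pair with each other or with a FOS protein, whereas FOS proteins need another kind of partner, such as a JUN protein. Dimers of JUN and FOS proteins bind TGANTCA and, less strongly, the cAMP response element TGACGTCA. Fos is an immediate early gene, whose RNA rises and falls quickly after a growth stimulus. Fosl1, which encodes FRA-1, follows later and lasts under continued ERK signalling, and it is known for high levels in invasive, mesenchymal carcinoma cells.

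Totals were 3358908, 4020023 and 3210024 counts in parental replicates 1 to 3. Levels are CPM, counts scaled to a common library total, given as mean ± SD over the libraries (n = 3). Reads were taken from the 3' end of a transcript whatever its length, so levels of different genes were compared without a length correction. A single count per transcript also needs collapsing by molecular identifier, which the sources used here do not describe. A floor of 3 counts is 0.893, 0.746 and 0.935 CPM in replicates 1 to 3. Of the 7 epithelial markers listed, 2 were analysed, Vil1 with 1 count and Krt8 with 1 count over the libraries, so the labelled adenocarcinoma origin was not marked by these genes. Of the 6 immune and endothelial markers listed, 4 were analysed. Their summed level was 0.935 to 1.49 CPM per library, and each had 1 to 10 counts in all.

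The start regions of Jun and Fos are shown first, because Jun was the highest JUN gene and Fos the lowest gene of the 6, and because RefSeq and GENCODE M21 place the start of both at the same base. Each sequence runs from 250 bases before the start to 50 bases from the start on, on GRCm38.p6, as given by RefSeq, at chr4:95052173-95052472 on the minus strand for Jun and chr12:85473640-85473939 on the plus strand for Fos. Capitals mark TGACATCA, the shorter TGACG and TATAAA, on either strand.
Jun: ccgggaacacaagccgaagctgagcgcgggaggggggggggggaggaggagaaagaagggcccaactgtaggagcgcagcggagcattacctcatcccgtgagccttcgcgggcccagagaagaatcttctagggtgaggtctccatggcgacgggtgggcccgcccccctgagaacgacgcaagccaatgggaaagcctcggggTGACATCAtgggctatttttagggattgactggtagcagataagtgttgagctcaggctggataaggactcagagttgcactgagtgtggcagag
Fos: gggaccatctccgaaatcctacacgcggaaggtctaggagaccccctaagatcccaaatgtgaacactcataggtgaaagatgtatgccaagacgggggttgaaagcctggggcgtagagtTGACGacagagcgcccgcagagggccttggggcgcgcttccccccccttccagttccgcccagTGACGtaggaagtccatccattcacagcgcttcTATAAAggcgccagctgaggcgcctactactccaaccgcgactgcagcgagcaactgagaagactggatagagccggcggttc
The Jun region holds TGACATCA, a relative of the cAMP response element that is bound in the human JUN promoter, at bases -45 to -38 from the start. The same letters were found in 3.62% of the 32851 promoters of this length in the RefSeq table. The Fos region holds TGACG, which is also the first part of TGACGTCA, 2 times, the first at bases -129 to -125, and TATAAA at bases -33 to -28. TGACG was present in 20.8% and TATAAA in 13.6% of all promoters. Neither region holds TGANTCA, which was in 7.81% of all promoters, or TGACGTCA, which was in 1.79%. Of the other members, Fosl2, Junb and Jund have an entry whose start lies 671, 30 and 1210 bases from the GENCODE start. In these 3 entries there was no TGANTCA, no TGACGTCA and no TGACATCA. Fosl1 is named only.

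The 3' untranslated regions were read for ATTTA, the core of the AU-rich elements through which Fos RNA is known to be degraded. Windows of 30 bases from the GENCODE M21 transcripts are shown for the lowest gene and the highest of each family, with ATTTA in capitals. Each window was picked because no other in its region holds more ATTTA copies, so it is not a typical stretch.
Fos: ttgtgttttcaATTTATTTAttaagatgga
Jun: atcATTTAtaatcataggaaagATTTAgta
Fosl1: aagggcagctgctATTTAttttcctaaaga
In Fos 2 copies overlap to form ATTTATTTA, in Jun 2 copies lie apart, and Fosl1 has its only copy here. Over the whole 3' untranslated region, Fos had 4 copies in 815 bases, or 4.91 per 1000 bases, a density above that of 92.0% of the 20548 genes with such a region of at least 50 bases. Junb had 4.12 and Jun 3.24 copies per 1000 bases, densities above those of 88.0% and 80.8% of these genes. Jund had 1.88, Fosl2 1.72 and Fosl1 1.57, above 61.6%, 58.8% and 55.8%. The median over all genes was 1.27.

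Fosl1 and Jun carried most of the AP-1 RNA of parental MC38 cells, and Fos was at the limit of detection. Fosl1 (chromosome 19, 5447698 to 5455938, GRCm38) had 623, 686 and 685 CPM in replicates 1 to 3, a mean of 665 ± 36.3 CPM (SD, n = 3), which was the 229th highest level of all genes listed. Fosl2, which encodes FRA-2 (chromosome 5, 32136472 to 32157840), had 51.2, 73.4 and 71.7 CPM, a mean of 65.4 ± 12.3 CPM (SD, n = 3). Replicate 1 was the lowest for both genes. In bulk RNA, fewer cells that express a gene and less RNA per cell cannot be told apart.

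Fos (chromosome 12, 85473890 to 85477274) had 1, 2 and 1 counts, or 0.298, 0.498 and 0.312 CPM. All 3 values are below the floor of their library. Over the 3 libraries together its 4 counts are 0.378 CPM, with an exact Poisson 95% interval of 0.103 to 0.967 CPM that covers counting error only. The pooled count of Fosl1 was 1763 times that of Fos, with an exact (Clopper-Pearson) 95% interval of 688 to 6470. Fosl2 was counted 174 times as often as Fos, with an interval of 67.8 to 641. Fosb, the remaining FOS gene and no member of the 6, had 7, 5 and 3 counts, and was thus also near the floor at 1.42 ± 0.59 CPM (SD, n = 3).

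Among the JUN genes, Jun (chromosome 4, 95049036 to 95052222) was the highest in every library. It had 456, 481 and 507 CPM, a mean of 482 ± 25.5 CPM (SD, n = 3). Junb, whose product is a weaker activator than JUN at many sites (chromosome 8, 84976909 to 84978748), had 142, 149 and 148 CPM, a mean of 146 ± 3.36 CPM (SD, n = 3). Jund, the JUN gene least dependent on growth stimuli (chromosome 8, 70697739 to 70700616), had 84.3, 79.4 and 94.4 CPM, a mean of 86.0 ± 7.67 CPM (SD, n = 3). The 3 genes did not overlap in level, and Jun was counted 3.30 ± 0.12 times as often as Junb (SD, n = 3) and 5.62 ± 0.39 times as often as Jund (SD, n = 3).

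**Figure D1:**
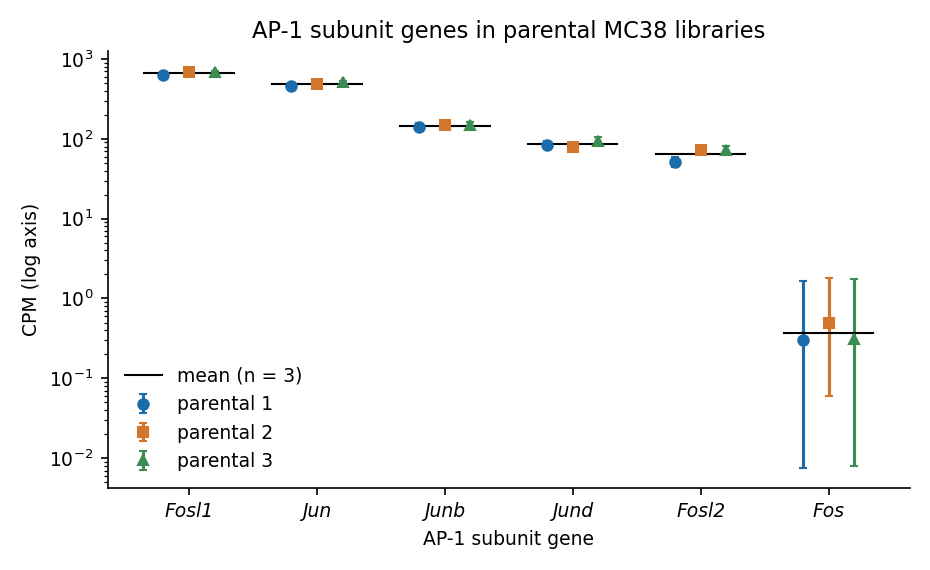
Level of each AP-1 subunit gene in CPM, on a log axis, in the 3 parental libraries. Points are libraries, bars are exact Poisson 95% intervals of the counts, which cover counting error only, and lines are means (n = 3). Fosl1 stands at 623 to 686 CPM and Fos at 0.298 to 0.498 CPM.

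In order of mean level the genes were Fosl1, Jun, Junb, Jund, Fosl2 and Fos, and the order was the same in 3 of 3 libraries. No neighbours in this order overlapped between libraries. The closest pair was Jund and Fosl2, where the lowest Jund value was 79.4 CPM and the highest Fosl2 value 73.4 CPM. Their ratio of counts was 1.65, 1.08 and 1.32 in replicates 1 to 3, so replicate 2 held nearly equal counts of both. Fosl1 exceeded Jun by a ratio of 1.36, 1.43 and 1.35, with a pooled value of 1.38 and an exact (Clopper-Pearson) 95% interval of 1.33 to 1.43. These ratios are taken within a library and do not depend on its scaling, but genes can differ in how well their 3' ends are read.

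The FOS and JUN families were counted in nearly equal amounts. The 3 FOS genes summed to 674, 760 and 757 CPM and the 3 JUN genes to 683, 709 and 750 CPM. The ratio of FOS to JUN counts was 0.987, 1.07 and 1.01, on both sides of 1, and the pooled ratio was 1.03 with an exact (Clopper-Pearson) 95% interval of 0.994 to 1.06. All 6 genes together summed to 1357, 1469 and 1507 CPM, a mean of 1444 ± 77.7 CPM (SD, n = 3).

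Within each family 1 gene gave most of the counts. Fosl1 was 91.0% ± 1.1 of the FOS family counts, Fosl2 8.90% ± 1.1 and Fos 0.0502% ± 0.013 (SD, n = 3). Jun was 67.5% ± 0.56 of the JUN family counts, Junb 20.5% ± 0.69 and Jund 12.0% ± 0.75 (SD, n = 3). Of all 6 genes, Fosl1 and Jun took 46.0% ± 0.63 and 33.4% ± 0.52 of the counts (SD, n = 3).

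**Figure D2:**
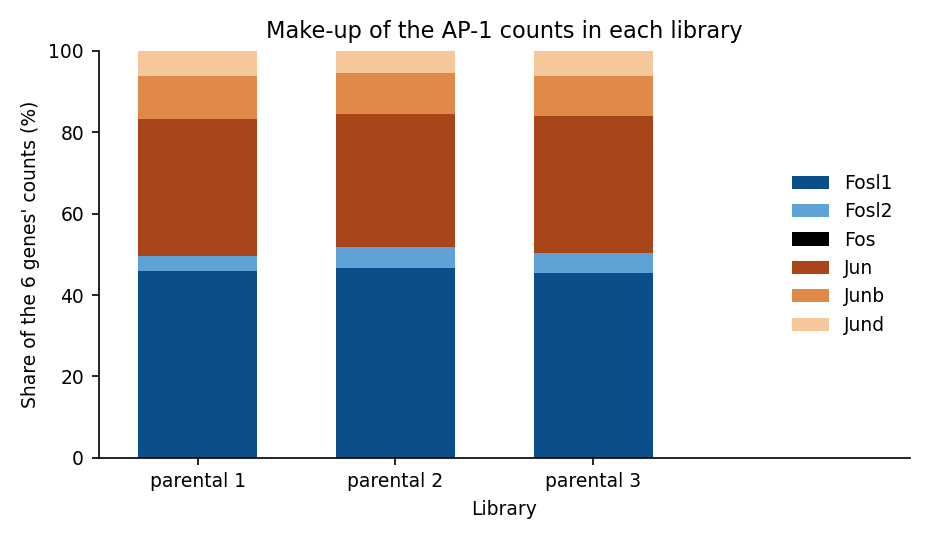
Share of each gene in the summed counts of the 6 AP-1 subunit genes, in percent, for each parental library. Fosl1 fills 45.5% to 46.7% and Jun 32.8% to 33.7% of each bar, and Fos, at 0.0207% to 0.0339%, is too thin to see.

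Whether the members differed between the parental libraries by more than counting error was examined with the chi-square test on the counts of every gene whose expected count reached 5 in all libraries. This compares libraries and not conditions, and the spread may be technical. Of the 6 members 5 were tested, and Fos was below the minimum expected count. Fosl2 varied, at an adjusted p of 0.0241, with a ratio of 1.43 between its highest and lowest library. The other 4 tested did not pass, with adjusted p-values of 0.0982 for Fosl1, 0.230 for Jun, 0.963 for Junb and 0.459 for Jund. An unadjusted chi-square p below 0.05 was found for 3 of the 5, Fosl2, Fosl1 and Jun, beside 1466 of all 11118 genes tested. Over all genes 311 of 11118 passed, which is 2.80%. Without replicate 3 the number of genes that passed was 61, without replicate 1 it was 213 and without replicate 2 it was 274.

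Fosl2 stood at 51.2 CPM in replicate 1, with an exact Poisson 95% interval of 43.8 to 59.5 CPM, below the intervals of replicate 2 (65.2 to 82.3 CPM) and replicate 3 (62.7 to 81.5 CPM). Exact binomial tests of each pair of libraries gave an adjusted p of 0.0361, and 289 genes (2.60%) passed that test. Without replicate 1 the adjusted p was 0.958, and without replicate 2 it was 0.0684. When the common dispersion of all genes over these libraries, estimated with edgeR, was added to the counting error, the adjusted p of Fosl2 was 0.615, and 30 genes (0.270%) passed. Of the 1737 other tested genes within 1.5-fold of its mean level, 34 (1.96%) had an SD relative to the mean as large as that of Fosl2, 18.9%.

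Fosl1 was 623 CPM in replicate 1 against 686 and 685 CPM in the others. It passed at an adjusted p of 0.0439 when library totals replaced the median-ratio scaling. Junb varied least, with an SD of 2.30% of its mean, which is below the 4.43% that counting error alone gives. The SD was 5.30% of the mean for Jun, 5.46% for Fosl1 and 8.92% for Jund.

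**Figure D3:**
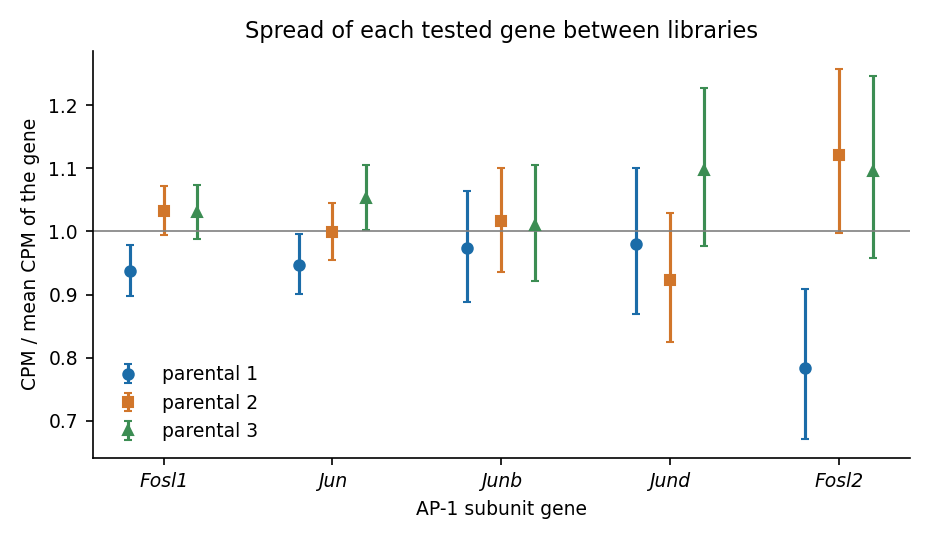
CPM of each tested AP-1 gene in each parental library divided by the mean of that gene. Bars are exact Poisson 95% intervals of the counts, which cover counting error only. Fosl2 in replicate 1 is the point farthest from 1, and its interval does not reach those of replicates 2 and 3.

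**Figure D4:**
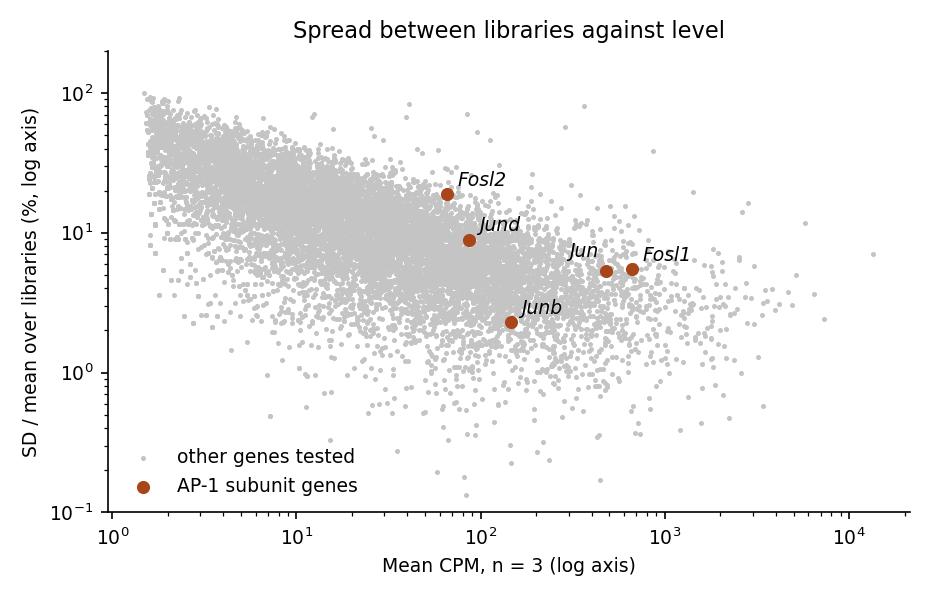
SD relative to the mean over the 3 parental libraries, in percent, against mean CPM for the 11118 genes tested, both on log axes. The 5 tested AP-1 genes are coloured. Fosl2, at 18.9%, lies near the upper edge of genes of like level, and Junb, at 2.30%, lies low.

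Overlapping annotation limits how firmly some counts can be read. In GENCODE M21 the last exon of Fosl1 overlaps an exon of Ccdc85b on the other strand, and the sources used here do not say whether the counting used strand. Ccdc85b had 362, 403 and 362 counts, against 2092, 2759 and 2199 of Fosl1, so reads of the pair may have been assigned to either. The antisense genes Junos, at 8, 14 and 15 counts, and Gm11175, at 2, 5 and 2 counts, overlap exons of Jun and Jund away from their 3' ends. Prdx2, on the other strand and at 2077, 2453 and 1848 counts, overlaps the Junb gene, but its exons do not overlap that of Junb. The JUN genes are each a single exon in their longest coding transcript, and Fosl1, Fosl2 and Fos have 4 exons each.

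The genes most like a member in level were those with the smallest Euclidean distance of log2(CPM + 1) over the 3 libraries, which is likeness of level and says little of pattern over so few libraries. They were Pa2g4 (671 ± 47.7 CPM) and Hsp90aa1 (666 ± 47.2 CPM) for Fosl1 (SD, n = 3). For Jun they were Eif3e, at 482 ± 17.1 CPM, and Itgb1, at 488 ± 12.4 CPM (SD, n = 3). Dap3, at 146 CPM, was among those of Junb. For Jund they were Gtf2h4 (85.9 CPM) and Ptms (86.4 CPM), and for Fosl2 they were Zdhhc3 (63.7 CPM) and Plod3 (66.3 CPM). For Fos, 94 genes had exactly its counts, so none stands closer than the rest.

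Other AP-1 and related basic leucine zipper factors were lower than Fosl1 and Jun. Of 16 listed, 12 were analysed, and all 12 were at a mean of at least 1 CPM, 10 at 10 CPM and 2 at 100 CPM. Over all genes, 49.5%, 31.2% and 8.54% reached these levels, and of the 6 members 5, 5 and 3 did. The highest were Atf4, a stress response activator, with 194 ± 6.17 CPM, and Nfe2l2, the NRF2 antioxidant regulator, with 115 ± 5.35 CPM (SD, n = 3). Atf1 (59.6 CPM), Atf2 (19.4 CPM) and Atf7 (23.7 CPM) are factors of the CREB and ATF group. Of the small MAF genes, Mafg had 55.8 CPM, Mafk 23.4 CPM, and Maff 8.34 to 12.8 CPM over the libraries. Maf had 15.3 CPM.

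Jdp2, a repressor that pairs with JUN proteins, had 22.9, 29.9 and 35.2 CPM, a mean of 29.3 ± 6.16 CPM (SD, n = 3). Atf3, which is induced by stress, had 2.65 ± 0.52 CPM (SD, n = 3), and Fosb was the lowest of the 12. Of 11 tested, 1 varied between libraries, Atf7, with 29.5, 26.9 and 14.6 CPM and an adjusted p of 0.0104 by the chi-square test, and replicate 3 was the low one. With the common dispersion its adjusted p was 0.222, and 0 of the 11 varied. Over all genes, 2.80% varied by the chi-square test and 0.270% with the common dispersion.

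The kinases that act on AP-1 were widely counted. Of 22 genes of the MAP kinase cascades, 21 were at 1 CPM or more, 17 at 10 CPM and 6 at 100 CPM, with a median of 25.1 CPM beside 0.941 CPM over all genes. The highest were Map2k2, a kinase of ERK, with 338 ± 18.1 CPM, Map2k3, a kinase of p38, with 241 ± 7.92 CPM, and Hras with 180 ± 17.0 CPM (SD, n = 3). Of the kinases of the JUN activation domain, Mapk8 (JNK1) had 13.4, 14.9 and 16.8 CPM and Mapk9 (JNK2) 20.8, 29.1 and 23.7 CPM. Mapk10 (JNK3) had 0 counts, and a floor of 3 counts over all libraries is 0.283 CPM. Of 21 tested, 1 varied, Map3k7, the kinase TAK1, with 31.3, 29.6 and 15.9 CPM and an adjusted p of 0.00732 by the chi-square test. With the common dispersion its adjusted p was 0.209, and 0 of the 21 varied. The shares over all genes were 2.80% by the chi-square test and 0.270% with the common dispersion.

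RNA of factors known to act on Fos transcription, whether to raise or to lower it, was counted, while their protein and activity were not measured. All 7 genes of the SRF and ternary complex list reached 1 CPM, and the highest were Elk3 with 66.2 ± 1.04 CPM, Creb1 with 34.5 ± 5.16 CPM and Elk4 with 16.3 ± 3.29 CPM (SD, n = 3), and Srf itself had 12.8 ± 1.40 CPM (SD, n = 3). Of the 7 genes for the turnover of JUN and FOS proteins, all were at 10 CPM or more. Among them the kinase Gsk3b had 34.9 ± 2.75 CPM and the ubiquitin ligase Itch, which acts on JUN proteins, 32.4 ± 3.99 CPM (SD, n = 3). Of the 8 phosphatase and feedback genes, all were at 1 CPM or more, led by Dusp1 with 47.3 ± 3.62 CPM, Spred1 with 22.3 ± 2.15 CPM and Spry2 with 16.1 ± 5.33 CPM (SD, n = 3). Of the 7, 7 and 8 genes tested in these lists, 0 varied between libraries by the chi-square test. The exact binomial tests of pairs and the common dispersion also gave 0. Over all 11118 genes tested, 2.80%, 2.60% and 0.270% passed these tests. In the lists 1, 0 and 1 genes had an unadjusted chi-square p below 0.05, beside 1466 of the 11118.

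Of 15 other immediate early genes analysed, 13 reached 1 CPM and 5 reached 100 CPM. Of 13 tested, 0 varied by any of these tests. An unadjusted chi-square p below 0.05 was found for 0 of them, beside 1466 of all 11118 genes tested. Ccn1, a secreted matrix protein, had 389 ± 15.8 CPM, Ier3 198 ± 8.84 CPM and Myc 170 ± 11.3 CPM (SD, n = 3). Egr1, which like Fos is driven by SRF, had 12.5, 12.7 and 12.5 CPM, above Fos in 3 of 3 libraries. The cause of this difference was not tested. Egr2 and Egr3 were under the floor in each library, as Fos was.

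Of 19 known AP-1 target genes listed, 18 were analysed, and 15 were at 1 CPM or more, 9 at 10 CPM and 4 at 100 CPM. The cyclin Ccnd1 had 902 ± 42.2 CPM and the metalloproteinase inhibitor Timp1 384 ± 24.2 CPM (SD, n = 3). The secreted phosphoprotein gene Spp1 had 401, 391 and 395 CPM. Of 12 tested, 1 varied between libraries, Ccnd1, with 900, 861 and 945 CPM and an adjusted p of 0.0161 by the chi-square test, and 1.000 with the common dispersion. By the chi-square test 2.80% of all genes tested varied, and 0.270% did with the common dispersion. The metalloproteinase genes were low. Mmp13, like Mapk10, had 0 counts, Mmp3 had 2 counts in all, and Mmp10 and Mmp9 had 1.41 ± 0.20 and 1.32 ± 0.73 CPM (SD, n = 3).

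**Figure D5:**
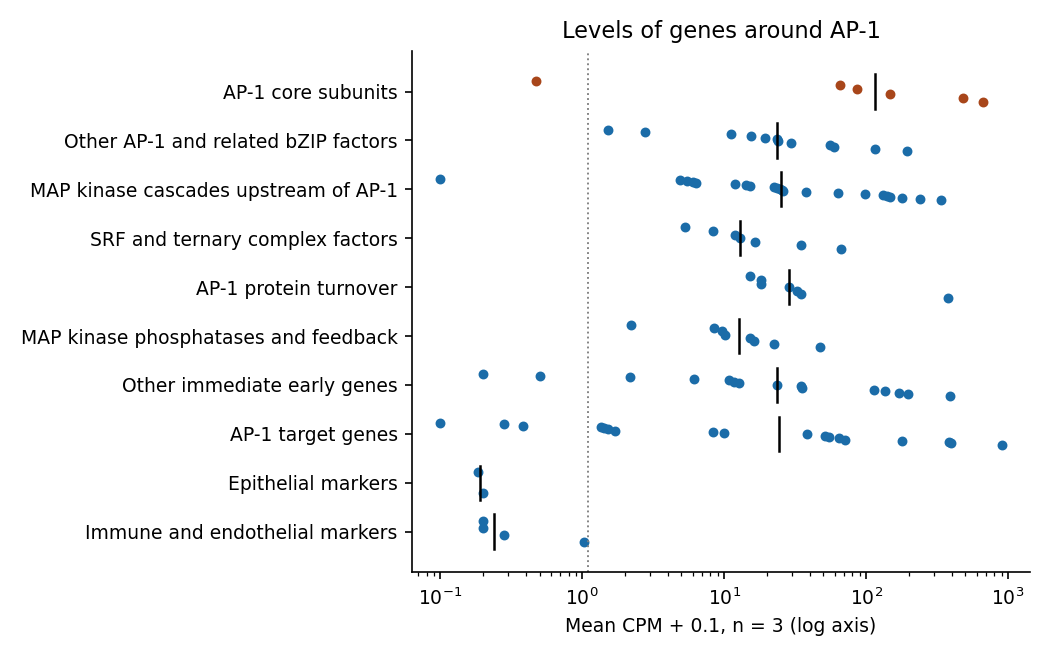
Mean CPM plus 0.1 over the 3 parental libraries, on a log axis, of each gene in the lists around AP-1. Points are genes, black lines are list medians and the dotted line marks 1 CPM. The 6 members have a median of 116 CPM, and all marker genes lie under 1 CPM.

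Promoters in RefSeq were found for 13 of the target genes. Of these, 6 hold TGANTCA, the AP-1 site, in the 300 bases, beside 7.81% of all 32851 promoters. The 6 sites are shown in capitals with 10 bases on each side, on GRCm38.p6 and all on the plus strand. They are shown because these genes carry the same site at very different levels.
Plaur: cccctggagcTGACTCActctttagca
Mmp10: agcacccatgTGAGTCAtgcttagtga
Mmp13: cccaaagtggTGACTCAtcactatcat
Mmp3: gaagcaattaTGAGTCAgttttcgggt
Sphk1: agcgtgtcgcTGAGTCAccttctcgga
Lif: cagtcagctgTGACTCAggccatagtg
These lie at chr7:24462404-24462430 for Plaur, chr9:7502269-7502295 for Mmp10, chr9:7272469-7272495 for Mmp13, chr9:7445766-7445792 for Mmp3, chr11:116531777-116531803 for Sphk1 and chr11:4257330-4257356 for Lif. Plaur, the urokinase receptor gene, had 64.2 ± 3.27 CPM (SD, n = 3), while the other 5 genes were at 1.41 CPM or less. Of the 7 target genes whose promoters do not hold TGANTCA, 6 were at 10 CPM or more. These genes were chosen as known targets and their promoters looked up after their levels were known, and a match or its absence in this window is a description of the letters.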

How the data were processed

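RNA of MC38 cells was sequenced from its 3' ends with barcoded oligo-dT primers that carry molecular identifiers, per the labels' protocols. The authors deposited whole-number counts per gene. Per the file headers, reads were not trimmed, and the genome was GRCm38 with GENCODE M25. The headers name STAR 2.7.5b as well as Picard 2.18.26 and Drop-seq tools 1.12. Collapsing by molecular identifier, strand and reads matching several genes are not described there, and uncollapsed counts would carry amplification noise. Intervals and floors cover counting error only.

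The deposited annotation names 3 columns wild type with replicate numbers, which gave the match to the parental samples. The other 6 columns, 2 sets of 3, were not used, since the labels give 3 STING-N153S samples and do not say which columns they are. The planned edgeR comparison of the groups was therefore not run. The annotation lists the 3 libraries as biological replicates without saying that the cultures were separate, so p-values measure only the spread between them, which may be technical.

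The members and lists were chosen with earlier results of these data known. The text names the members, the bZIP genes at 1 CPM or more, the top 3 genes of each other list and those at 0 counts, and the 2 genes nearest each member. Other genes were chosen after their values were seen, and 2 genes that this rule names are not reported here.

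Counts were divided by library totals. The chi-square test used totals scaled by median ratios, with Benjamini-Hochberg adjustment at 0.05 over 11118 genes, and 1466 genes had an unadjusted p below 0.05. The test was tried on simulated data first. With counting error alone it recovered 40.1% of genes changed 1.5-fold in 1 library. With the common dispersion in both the counts and the test it recovered 29.1%. A gene that did not pass may thus still have varied. Gene positions are from RefSeq on GRCm38.p6. Software was Python 3.11.15 (scipy 1.17.1, pandas 2.3.3, numpy 2.4.6, matplotlib 3.10.9) and R 4.3.3 with DESeq2 1.42.0 and edgeR 4.0.16.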

Additional observations from a re-analysis of the deposited data

How the results depend on the processing

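No paired analysis was possible because values were read for 1 group, parental MC38. Alternatives planned for a comparison of the groups were likewise not run. The summed level of the 6 genes, 1444 CPM, was 1591 CPM when the 20 highest genes did not count toward library totals and 1413 to 1488 CPM without 1 library. Under TMM, DESeq2 size factors and upper-quartile scaling it stayed within 1 SD. The FOS to JUN ratio of 1.03 ran from 0.999 to 1.04 without 1 library. The number of genes varying between libraries, 311, was 61 to 274 without 1 library, the lowest without replicate 3, and 30 when the common dispersion was added, an alternative chosen after seeing the data. The other settings gave 247 to 322. The number of list genes at 1 CPM or more, 88 of 95, was 83 at a minimum of 2 CPM and 86 to 88 without 1 library. Of 45 alternatives for single members in the count test, 41 left the call as it was. The exceptions were Fosl2 without replicate 1, without replicate 2 and with the common dispersion, and Fosl1 with library totals, all given above. The cause was not tested. Depth limits Fos, whose 4 counts were under the minimum. With no minimum on the expected count, its adjusted p by the chi-square test was 0.951.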
